A study of Sus scrofa with 18 samples.

Results

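The motile cilium genes of ciliated epithelium were followed through the 2 muscle layers of the pig uterus. The members were 36 genes given by symbol: regulators of ciliated cell fate, the parts of the axoneme and the proteins that assemble them. Of these, 32 were found among the 24358 genes of the expression table. HYDIN and TEKT4 had no identifier in the name table, and the identifiers of CFAP53 and DNALI1 were not among the rows analysed here, so these 4 are named only.

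RNA was sequenced from the myometrium of 9 Yorkshire gilts, 3 on day 15 of pregnancy (GD15), 3 on day 12 of pregnancy (GD12) and 3 on day 15 of the estrous cycle (CD15, not mated). The pregnant gilts had been mated naturally. From each gilt the circular muscle (CM, the inner layer, next to the endometrium) and the longitudinal muscle (LM, the outer layer) of the mesometrial side gave 1 library each, 18 in all, after the endometrium had been cut away from frozen tissue with a scalpel. Values are TPM (transcript abundance scaled to a fixed library total) and are also scaled for gene length, which allows levels to be compared between genes, but they keep no read depth, so counting error is unknown. Fold changes are differences of log2(TPM + 1), which understate the change of genes at low levels.

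A motile cilium bends because dynein arms, fixed along the outer microtubule doublets, pull on the neighbouring doublet, while radial spokes, a central pair of microtubules and nexin links set which arms are active. Dynein arms are put together in the cytoplasm before they are carried into the cilium. In the uterus and oviduct these organelles are borne by ciliated cells of the lining epithelium and of the glands, and smooth muscle cells carry at most a primary cilium, which lacks dynein arms and a central pair.

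Most members were high in CM and near the bottom of the scale in LM. Of the 32 found, 28 were at 1 TPM or more in every CM library, and only 7 were so in every one of the 18 libraries. In all 9 gilts, 25 of the 29 members that could be tested were higher in CM than in LM of the same animal. The exceptions were RFX3 (8 of 9 gilts), TPPP3 (7), CCDC39 (5) and RFX2 (3). The share of all genes higher in CM in all 9 gilts is not given here, and 11 of the 29 could be tested only through their CM levels.

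**Figure D1:**
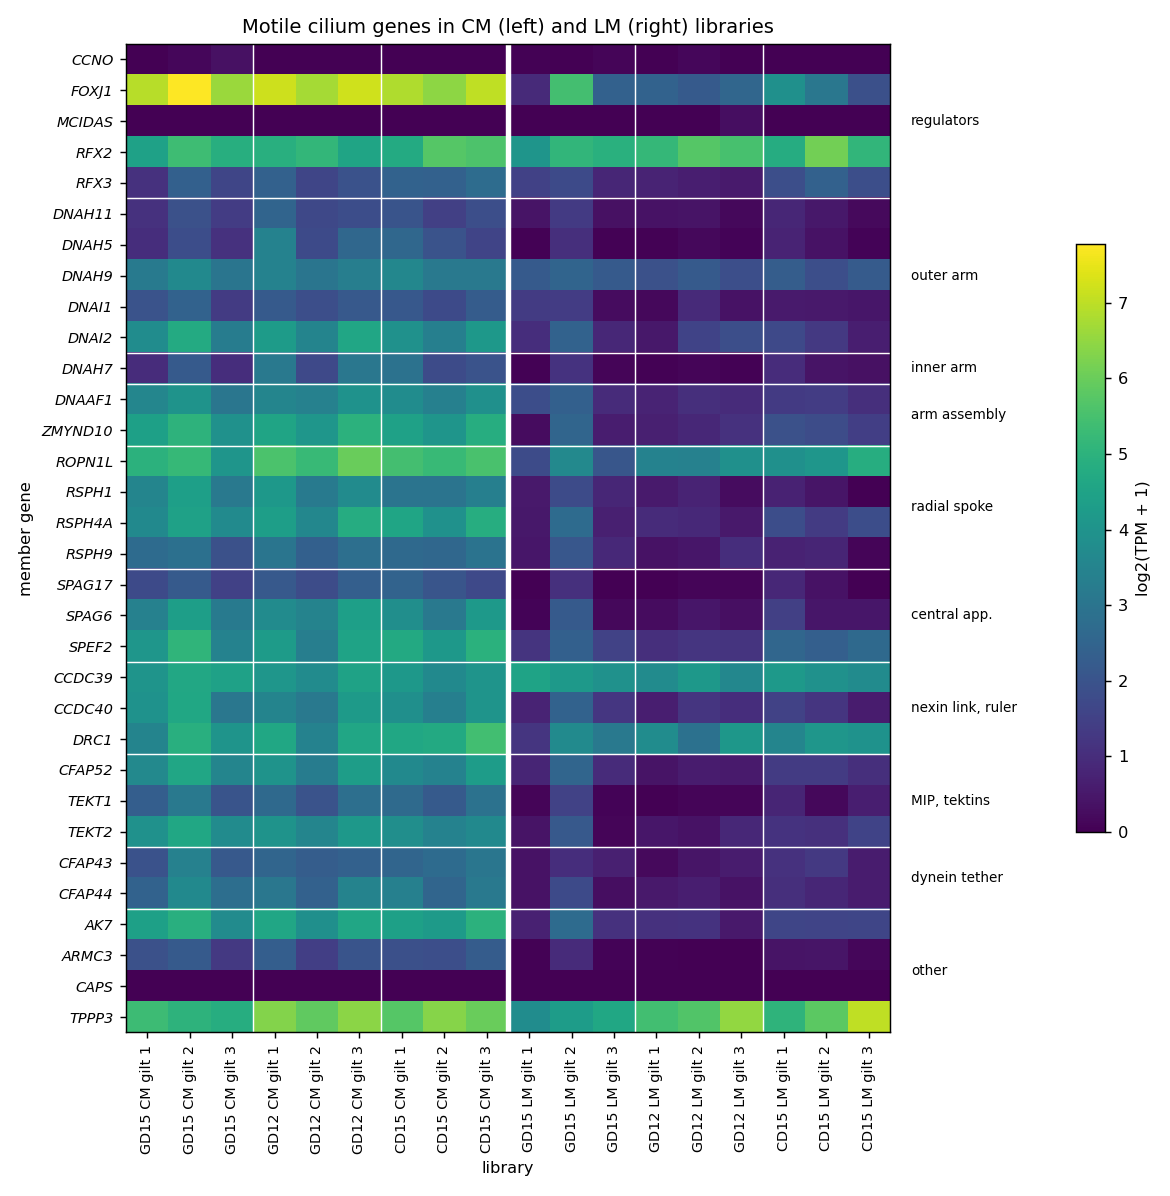
Level of the 32 found members, as log2(TPM + 1), in each library, with CM libraries left and LM libraries right of the thick line and members grouped by role (MIP, microtubule inner protein). FOXJ1 stands out in CM, and RFX2, CCDC39 and TPPP3 have overlapping levels in both layers. The LM library of GD15 gilt 2 is the brightest LM column for most axoneme genes.

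Before the comparisons, 2 LM libraries that stood out are described. Both were kept in the main fits and left out only in alternatives. The LM library of GD15 gilt 2 held the highest LM level of 21 of the 29 tested members. Its EPCAM level was 25.4 TPM, against 0.409 and 0.884 TPM in the other GD15 LM libraries. EPCAM was at 0.775 to 1.29 TPM in GD12 LM, and at 14.8, 5.86 and 3.99 TPM in CD15 LM. The LM library of CD15 gilt 3 had MYH11, the myosin heavy chain of smooth muscle, at 193 TPM, where the other LM libraries had 2459 to 4849 TPM, and the share of its TPM in 46 ribosomal protein genes was 13.4%, with 2.82% to 5.02% in all others.

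The regulators split into 3 patterns. FOXJ1, the forkhead factor that switches on motile cilium genes, lies on chromosome 12 (chr12:5307370-5312117, RefSeq annotation of Sscrofa11.1). It had 121, 217 and 96.6 TPM in GD15 CM, against 0.909, 42.9 and 4.38 TPM in GD15 LM. In GD12 it had 143, 104 and 147 TPM in CM, against 4.50, 3.59 and 4.91 TPM in LM. In CD15 it had 115, 85.7 and 129 TPM in CM, against 13.8, 7.49 and 2.72 TPM in LM. The highest LM library, at 42.9 TPM, was below the lowest CM library, at 85.7 TPM, and FOXJ1 was the most abundant member in CM in every library.

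RFX2 and RFX3, winged-helix factors that bind the X-box of ciliary gene promoters, did not share the wide layer gap of FOXJ1. RFX2 had 20.9, 39.8 and 28.4 TPM in GD15 CM, against 15.7, 33.6 and 29.8 TPM in GD15 LM. In GD12 it had 28.7, 34.6 and 22.3 TPM in CM, against 34.8, 51.4 and 44.3 TPM in LM, and here every LM library was higher, with a difference of -0.60 ± 0.22 (SE, n = 3 gilts) that did not pass the test (limma, adjusted p = 0.0790). RFX3 was low in both layers, with 1.18 to 5.68 TPM in CM and 0.484 to 4.30 TPM in LM over the 9 libraries each. Its layers overlapped in GD15 and not in GD12 or CD15, where CM was higher. In GD12 RFX3 had 2.09 to 4.29 TPM in CM, against 0.484 to 0.726 TPM in LM.

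MCIDAS and CCNO, which in mouse and frog start the making of many centrioles in a cell that is becoming multiciliated, were close to absent. MCIDAS was above 0 in 1 library only (0.212 TPM, LM of GD12 gilt 3), and CCNO did not exceed 0.270 TPM. The 2 genes are neighbours on chromosome 16, 1083 bases apart. With no counts in the table, the lowest level that the depth could have shown is unknown.

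The outer dynein arm members were higher in CM, but unevenly. DNAI2, an intermediate chain, had 12.6, 25.8 and 8.65 TPM in GD15 CM, against 1.0, 4.41 and 0.823 TPM in GD15 LM. The heavy chain DNAH5 had 1.02, 2.56 and 1.17 TPM in GD15 CM, against 0.0355, 1.06 and 0.0395 TPM in GD15 LM. In GD12 DNAH5 had 9.93, 2.37 and 5.05 TPM in CM, against 0.0268, 0.128 and 0.0447 TPM in LM, so its layers were clear of each other in GD12 and overlapped in GD15, where only the LM library of gilt 2 reached the CM range. DNAH9, another heavy chain of the outer arm, differed from the rest in keeping 2.65 to 4.65 TPM in LM, below its 7.19 to 11.9 TPM in CM.

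DNAH7, the inner arm heavy chain, ran close to DNAH5. It had 0.972, 3.56 and 1.04 TPM in GD15 CM, against 0.0306, 1.20 and 0.0816 TPM in GD15 LM, and 7.82, 2.26 and 7.41 TPM in GD12 CM, against 0.0308, 0.0859 and 0.0308 TPM in GD12 LM. The arm assembly factors ZMYND10 and DNAAF1 were far more even among CM libraries. ZMYND10 had 14.1 to 31.3 TPM in CM, against 0.203 to 4.80 TPM in LM, and DNAAF1 had 7.22 to 15.0 TPM in CM, against 0.716 to 4.21 TPM in LM.

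Among the radial spoke members, the spoke head proteins RSPH1, RSPH4A and RSPH9 followed the common pattern. RSPH4A had 11.9, 20.7 and 12.3 TPM in GD15 CM, against 0.410, 5.54 and 0.597 TPM in GD15 LM. RSPH1 was listed at 0 in the LM library of CD15 gilt 3 and reached 2.44 TPM in the LM library of GD15 gilt 2. ROPN1L, a spoke protein with a regulatory subunit fold, kept a higher level in LM. It had 15.7 to 62.6 TPM in CM and 2.39 to 27.5 TPM in LM, with its highest LM level in CD15 gilt 3. Within each state every CM library was still above every LM library.

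The central apparatus members SPAG6 and SPAG17 were low in most LM libraries. SPAG6 had 9.65, 19.5 and 8.21 TPM in GD15 CM, against 0.0635, 3.56 and 0.113 TPM in GD15 LM. SPAG17 was listed at 0 in 3 LM libraries. SPEF2 had 16.0, 33.1 and 9.95 TPM in GD15 CM, against 1.24, 4.21 and 1.91 TPM in GD15 LM, and never fell under 1.06 TPM.

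CCDC39 and CCDC40 form the ruler that spaces the inner arms and spokes along the doublet, and they bind each other, yet they were spread differently over the layers. CCDC40 had 14.5, 23.5 and 7.51 TPM in GD15 CM, against 0.726, 4.39 and 1.36 TPM in GD15 LM. CCDC39 had 15.3, 24.1 and 20.8 TPM in GD15 CM, against 21.8, 17.3 and 14.3 TPM in GD15 LM, and its layers overlapped in every state. In the RefSeq annotation CCDC39 shares 14443 bases with TTC14, which was itself at 22.4 to 65.2 TPM in CM and 14.0 to 45.4 TPM in LM. The counting is not stated to use strand, so how reads in the overlap were assigned is unknown. Their part in the CCDC39 level was not tested. DRC1, of the nexin link, was also present in both layers, at 9.90 to 41.6 TPM in CM and 1.28 to 16.1 TPM in LM.

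The proteins inside the doublet wall followed FOXJ1. CFAP52 had 11.7, 23.4 and 10.6 TPM in GD15 CM, against 0.731, 4.84 and 0.930 TPM in GD15 LM. The tektin TEKT2 had 9.86 to 23.95 TPM in CM, against 0.0737 to 3.50 TPM in LM, and TEKT1 had 2.99 to 7.75 TPM in CM, against 0 to 1.88 TPM in LM. CFAP43 and CFAP44, the tether of an inner arm motor, had 2.85 to 9.60 and 4.33 to 11.8 TPM in CM, with no LM library above 1.46 TPM for CFAP43 or 2.32 TPM for CFAP44.

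Of the other ciliated cell genes, the adenylate kinase AK7 had 12.3 to 31.0 TPM in CM, against 0.434 to 5.62 TPM in LM, and ARMC3 had 1.45 to 4.05 TPM in CM, against 0 to 0.943 TPM in LM. CAPS, a calcium-binding protein of ciliated cells, was listed at 0 in every library. TPPP3, a tubulin-binding protein, was abundant in both layers, with 27.4 to 85.2 TPM in CM and 12.7 to 129 TPM in LM.

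The layers were then compared within each state by limma, with the gilt as a block, over 15343 genes that had at least 1 TPM in at least 3 of the 18 libraries. A gene was called at an adjusted p below 0.05 and a difference beyond 1 on the log2 scale. CAPS, MCIDAS and CCNO did not pass the level filter, and 11 of the 29 tested members passed it only through CM libraries, so the counts below describe these members and carry no support beyond that. In GD15, 21 of the 32 found members were called higher in CM, where 10.9% of all genes were. In GD12 there were 25, where 13.4% of all genes were called, and in CD15 also 25, where 11.8% of all genes were called. With both libraries of GD15 gilt 2 left out there were 20 in GD15, and with both libraries of CD15 gilt 3 left out there were 24 in CD15.

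No member was called lower in CM in any state. Over all genes tested, 3.56% were lower in GD15, 2.43% in GD12 and 0.893% in CD15. By limma at an unadjusted p below 0.05, RFX2 in GD12 was the only tested member that was lower in CM. The median layer difference of the tested members was 1.81 in GD15, 2.48 in GD12 and 2.07 in CD15, against 0.19, 0.23 and 0.33 over all genes. Every CM library was above every LM library for 20 members in GD15, 25 in GD12 and 26 in CD15, and the same held for 26.4%, 34.4% and 26.7% of the genes at or above 1 TPM in at least 3 libraries of that state.

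The largest difference in GD15 was that of FOXJ1, at 4.17 ± 0.59 (adjusted p = 0.00145), followed by the assembly factor ZMYND10, which differed by 3.31, 3.65 and 2.72 in GD15, GD12 and CD15. SPAG6 differed by 2.85, 3.51 and 2.92, RSPH4A by 2.66, 3.44 and 2.77, and AK7 by 2.83, 3.43 and 2.94 on the same scale. At the other end, RFX2, CCDC39 and TPPP3 were called in no state, and 20 members were called in all 3. No more than 10.9% of all genes, the lowest of the 3 single-state shares, can have been called higher in all 3. The share of all genes called in no state is not given here. The CCDC39 difference was 0.16 ± 0.28 in GD15, 0.27 ± 0.28 in GD12 and -0.0028 ± 0.28 in CD15 (SE, 3 gilts in each).

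**Figure D2:**
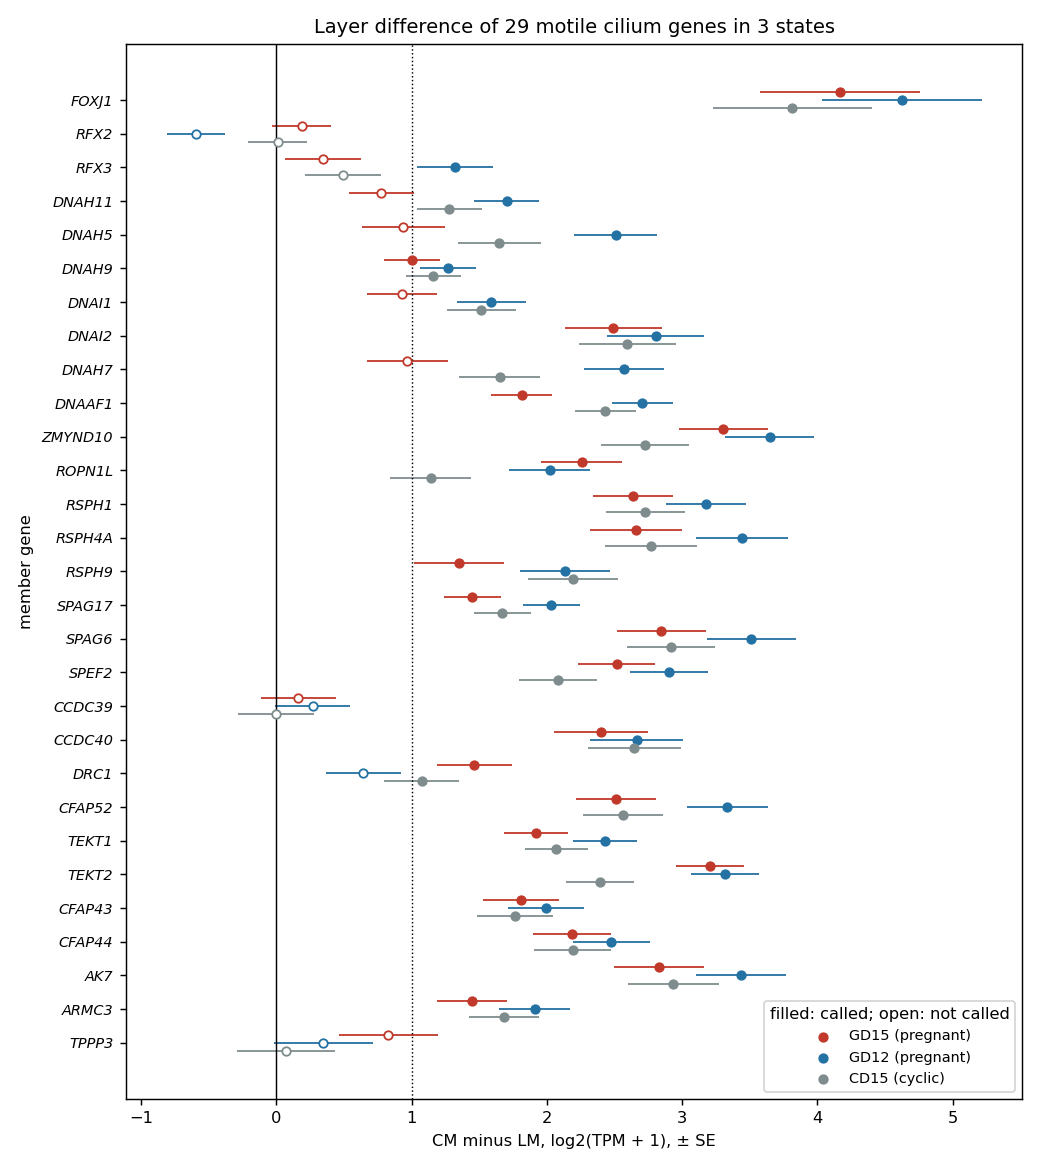
Difference of CM minus LM in log2(TPM + 1), with its standard error from limma, for the 29 tested members in GD15, GD12 and CD15. Filled points were called, open points were not, and the dotted line marks a difference of 1. The dynein heavy chains DNAH5, DNAH7 and DNAH11 are open in GD15 and filled in GD12 and CD15, and RFX2, CCDC39 and TPPP3 are open in all 3.

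The members called in GD12 and CD15 but not in GD15 were dynein arm genes. In GD15, DNAH5 differed by 0.94 ± 0.31 (adjusted p = 0.0607), DNAH7 by 0.97 ± 0.30 (0.0482), DNAH11 by 0.78 ± 0.24 (0.0505) and DNAI1 by 0.93 ± 0.26 (0.0321), each under the limit of 1. DNAH9, at 1.0 ± 0.21 (0.00853), lay just inside. With a pseudocount of 0.1 TPM in place of 1, DNAH5 and DNAH7 were called in GD15, at 2.48 and 2.40. Whether the layer difference itself changed between states was tested by contrasts of the layer differences, and no member was called. By limma, an unadjusted p below 0.05 was reached by 6 members for GD15 against GD12, 2 for GD15 against CD15 and 1 for GD12 against CD15. Over all genes tested, 0.0196%, 0.189% and 0.13% were called in these 3 contrasts. A call is a stricter limit than an unadjusted p below 0.05, so these shares are no background for the member counts. The lowest adjusted p among members was that of DNAH7 for GD15 against GD12, with a change of -1.60 ± 0.42 (adjusted p = 0.426). Over its alternatives that adjusted p ran from 0.103 to 1.

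Scaling did not turn the direction for any called member, but it moved the background. With median-ratio scaling, 63.3%, 70.0% and 75.5% of the called genes were higher in CM in GD15, GD12 and CD15, and with quantile normalization 55.6%, 60.7% and 68.1%, against 75.3%, 84.7% and 92.95% on the deposited TPM. The member counts were then 20, 25 and 22 with median-ratio scaling, and 19, 23 and 21 with quantile normalization. The members lost were DNAH9, RSPH9, RFX3, ROPN1L, DRC1 and DNAH11, in 1 or more states. These scalings lowered the median layer difference of all genes by 0.16, 0.23 and 0.34 (median-ratio) and by 0.23, 0.33 and 0.40 (quantile) on the log2 scale in GD15, GD12 and CD15, and the median of the tested members was then 1.67, 2.35 and 1.70, or 1.44, 2.16 and 1.52.

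The members at 1 TPM or more in every library were RFX2, DNAH9, ROPN1L, SPEF2, CCDC39, DRC1 and TPPP3, a division made after the values had been seen and described without a test. For these 7 the mean CM level was 0.884 to 7.14 times the mean LM level, with a median of 2.08. For the other 22 tested members it was 1.90 to 16.6 times, with a median of 11.13. Without the LM library of GD15 gilt 2 this was 1.98 to 29.7 times, with a median of 15.9, and FOXJ1 had 24.4 times in place of 13.6. Of the 7, 4 overlapped another annotated gene in RefSeq (SPEF2, CCDC39, TPPP3 and DNAH9), as did 9 of the other 22. Partners of TPPP3 were low (ZDHHC1 at no more than 3.77 TPM and LRRC36 at no more than 5.93 TPM), while ZNF18, beside DNAH9, had 17.5 to 26.2 TPM in CM and 10.1 to 19.7 TPM in LM. The part of overlapping reads in these levels was not tested.

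**Figure D3:**
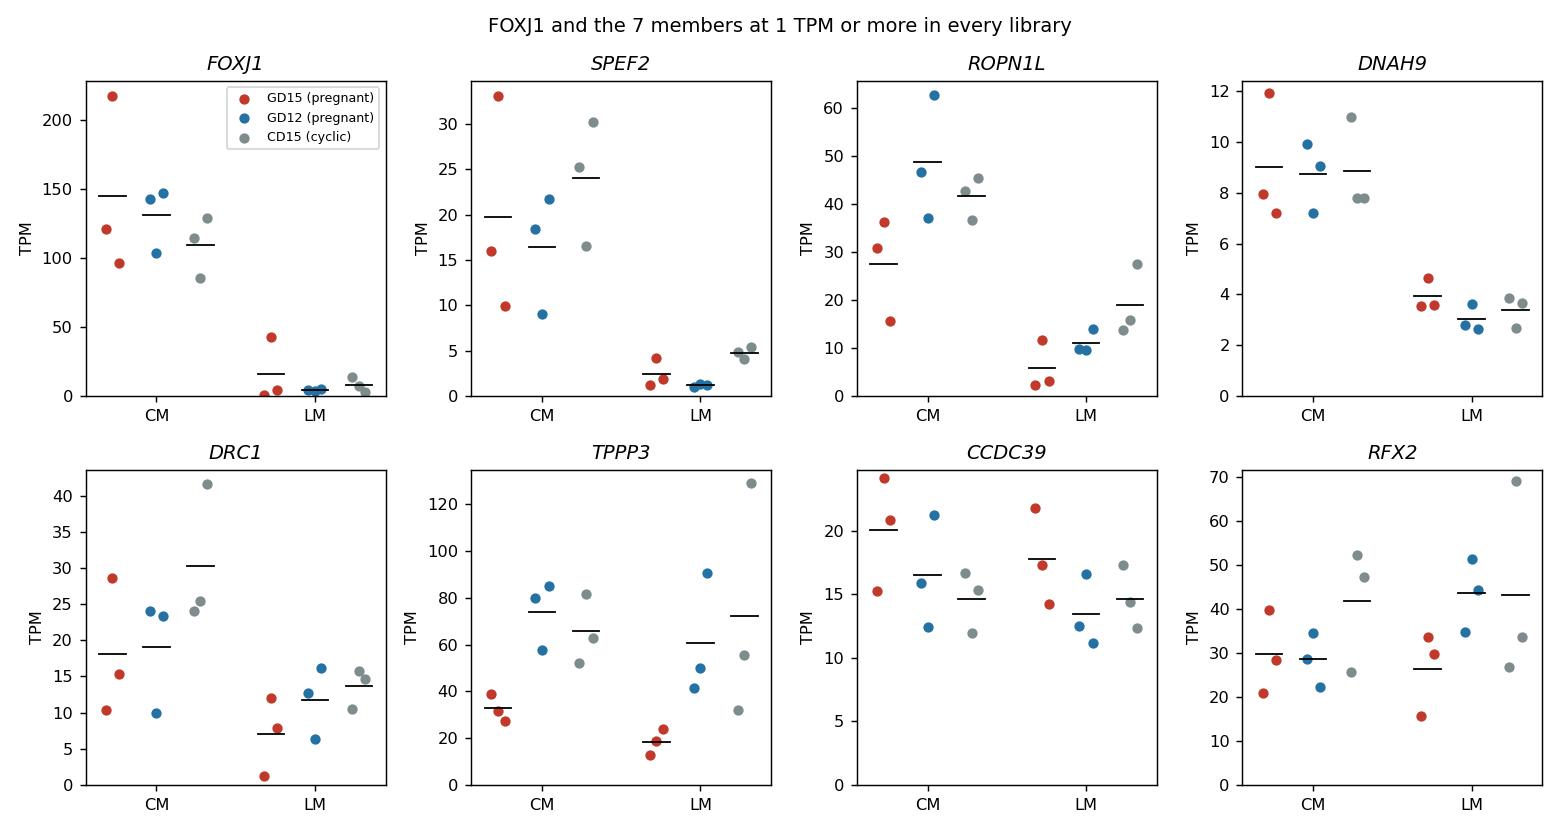
TPM per library, with the group mean as a bar, for FOXJ1 and the 7 members at 1 TPM or more in every library, in CM (left) and LM (right). For FOXJ1 and SPEF2 every LM library is below every CM library, with FOXJ1 at 42.9 TPM in LM of GD15 gilt 2. TPPP3, CCDC39 and RFX2 overlap between layers, and TPPP3 is lowest in GD15 in both.

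The 22 members outside these 7 were set beside epithelial genes, library by library. In CM their summed TPM was 340.1 ± 149.9 in GD15, 339 ± 86.7 in GD12 and 308 ± 68.5 in CD15, against 44.1 ± 52.3, 15.0 ± 2.22 and 31.1 ± 11.2 in LM (SD, n = 3 each). The GD15 LM value was made by gilt 2, at 105 TPM, where gilt 1 had 12.96 TPM. The 12 epithelium genes found (EPCAM, CDH1, CLDN3 and keratins among them) summed to 991 to 2407 TPM in CM, and to 15.6 to 754 TPM in LM, or at most 305 TPM without GD15 gilt 2. The 21 members other than FOXJ1 summed to between 0.0690 and 0.774 of the epithelium sum, the lowest in GD15 CM gilt 1 and the highest in GD15 LM gilt 1, so the sums did not keep a fixed ratio. Over the 18 libraries, which share the split by layer, Pearson's r with EPCAM was taken on the log2 scale. It was 0.71 to 0.98 for the 22 members, with a median of 0.95. Each of the 22 fell under 1 TPM in an LM library, so a high r across layers was partly built in. Among the other 7 it was 0.96 for SPEF2, 0.92 for DNAH9, 0.84 for ROPN1L and 0.69 for DRC1. For CCDC39, TPPP3 and RFX2 it was 0.32, 0.20 and -0.10. Within a layer the median r of the 22 was 0.73 in CM and 0.88 in LM. The 10 smooth muscle genes summed to 13624 to 36564 TPM in CM and 14942 to 52316 TPM in LM.

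**Figure D4:**
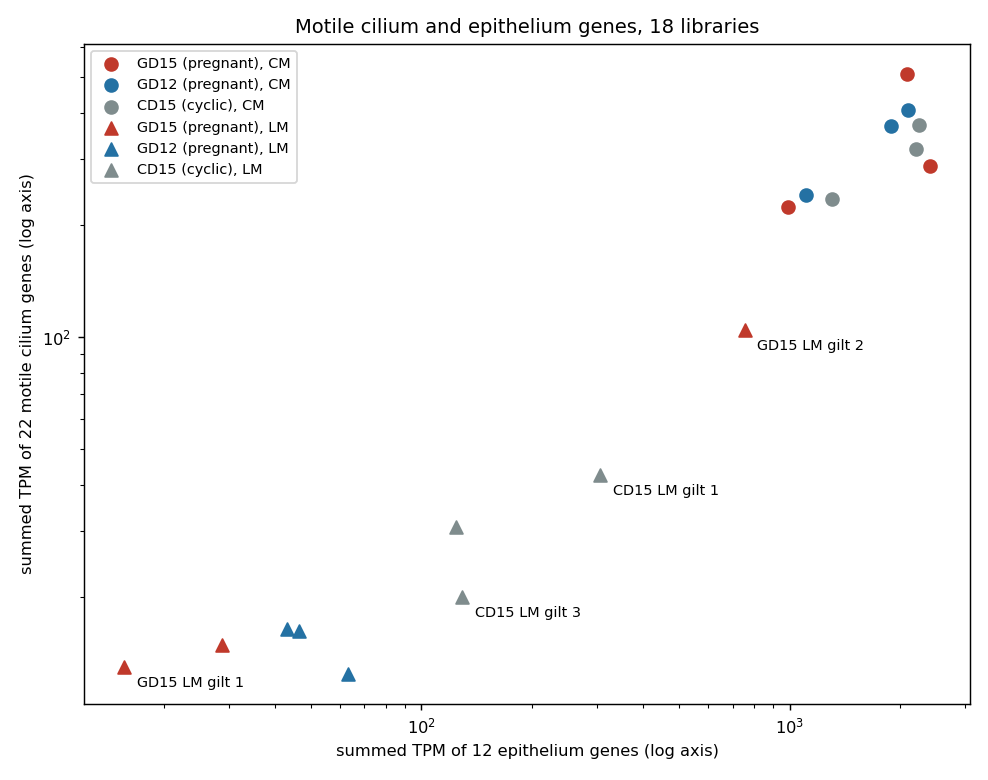
Summed TPM of the 22 members against summed TPM of 12 epithelium genes, 1 point a library, both axes logarithmic, with circles for CM and triangles for LM. The CM libraries sit together at the top right, GD15 LM gilt 2 lies nearest to them, and GD15 LM gilt 1 lies lowest on the epithelium axis.

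All 9 CM libraries had a higher epithelium sum than any LM library, so the layer and the epithelium content cannot be told apart in these data. In bulk tissue fewer ciliated cells and less RNA per ciliated cell cannot be told apart either. When the epithelium list was added to the fit as a covariate, none of the 15343 genes was called in any state by limma, members included, and the median member difference was 1.15 in GD15, 1.46 in GD12 and 1.34 in CD15.

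Within gilts, the LM level was set against the CM level for FOXJ1 and EPCAM. For FOXJ1 it was 0.750%, 19.7% and 4.53% in the 3 GD15 gilts, 3.14%, 3.45% and 3.34% in the GD12 gilts and 12.0%, 8.74% and 2.11% in the CD15 gilts. For EPCAM, the epithelial adhesion molecule, it was 0.564%, 23.3% and 1.91%, then 1.33%, 2.38% and 1.41%, then 13.4%, 11.3% and 5.29% in the same order. The FOXJ1 share was the higher of both in every pregnant gilt except GD15 gilt 2, and the lower in GD15 gilt 2 and all CD15 gilts. TPPP3 stood apart from both, at 32.6%, 58.5% and 86.6%, then 52.0%, 86.7% and 106%, then 61.3%, 67.9% and 205%.

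Among CM libraries, FOXJ1 was 1.04 to 3.19 times the EPCAM level, with the lowest ratio in CD15 gilt 1 and the highest in GD12 gilt 2. Among LM libraries it was 2.22, 1.69 and 4.95 times the EPCAM level in GD15. In GD12 LM the ratios were 4.02, 4.63 and 3.79, and in CD15 LM 0.936, 1.28 and 0.682. GD12 and CD15 did not overlap in LM, a difference that was not tested. EPCAM was only 0.775 to 1.29 TPM in GD12 LM, and 0.409 and 0.884 TPM in GD15 LM gilts 1 and 3. The ratios of those libraries therefore divide by low levels. The CM library of GD15 gilt 2 was the highest of the 9 CM libraries for 15 of the 29 tested members, and the CM library of GD15 gilt 3 the lowest for 12. Both belong to GD15.

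Between states, no member was called in CM. The tests ran on the 9 libraries of a layer by limma, unpaired, and 0.027% of all genes were called for GD15 against GD12, 0.155% for GD15 against CD15 and 0.216% for GD12 against CD15. These shares are at the stricter limit of a call and are no background for the next counts. An unadjusted p below 0.05 was reached by 4, 2 and 0 of the 29 tested members. Their median change was -0.09, -0.21 and 0.02, against 0.06, -0.05 and -0.11 over all genes. FOXJ1 changed by 0.07 ± 0.29 for GD15 against GD12 (adjusted p = 0.935), 0.33 ± 0.29 for GD15 against CD15 (0.620) and 0.26 ± 0.29 for GD12 against CD15 (0.682). The 3 contrasts share libraries, so they are not independent of each other.

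TPPP3 had the lowest adjusted p of the members between states in CM. It had 39.0, 31.8 and 27.4 TPM in GD15 CM, against 79.8, 57.6 and 85.2 TPM in GD12 CM and 52.3, 81.8 and 62.9 TPM in CD15 CM. Every GD15 CM library was below every other CM library, by -1.15 ± 0.22 against GD12 (adjusted p = 0.0857) and -0.97 ± 0.22 against CD15 (0.136). In LM it had 12.7, 18.6 and 23.8 TPM in GD15, against 41.5, 49.9 and 90.7 TPM in GD12 and 32.0, 55.6 and 129 TPM in CD15. Here too the GD15 libraries lay below all others, by -1.63 ± 0.51 against GD12 (0.868) and -1.73 ± 0.51 against CD15 (0.254). Without the LM library of CD15 gilt 3 these were -1.63 (0.0827) and -1.20 (0.106). Both layers come from the same gilts, so the LM values are no separate set of animals. Without GD15 gilt 1 the CM change against GD12 was -1.28 and passed the test (adjusted p = 0.0368), and over all its alternatives the adjusted p ran from 0.0368 to 0.285.

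DNAH5 and DNAH7 were the least even of the tested members among CM libraries. The highest CM library exceeded the lowest 9.74-fold for DNAH5 and 8.04-fold for DNAH7, against a median of 2.73-fold over the 29 tested members and 1.66-fold for DNAH9. Against GD12, the GD15 change in CM was -1.28 ± 0.46 for DNAH5 (adjusted p = 0.231), -1.24 ± 0.50 for DNAH7 (0.277) and -0.85 ± 0.30 for ROPN1L (0.231), and the groups overlapped for DNAH5 and DNAH7 but not for ROPN1L. DYNC2H1, the heavy chain of the transport dynein that serves primary cilia as well, was uneven too, at 0.532, 3.47 and 1.13 TPM in GD15 CM, 3.04, 0.899 and 0.973 TPM in GD12 CM and 4.22, 4.54 and 2.94 TPM in CD15 CM.

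**Figure D5:**
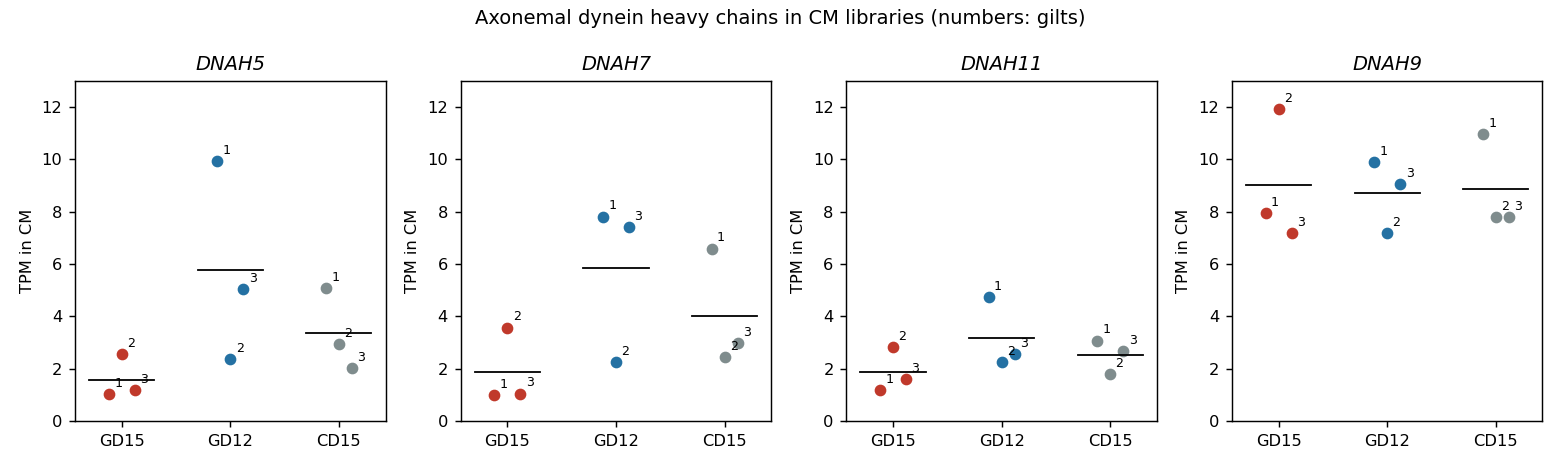
TPM of the axonemal dynein heavy chains in the 9 CM libraries, by state, with gilt numbers beside the points and the group mean as a bar. DNAH5 and DNAH7 are highest in GD12 gilt 1 and lowest in GD15 gilt 1, whereas DNAH9 stays between 7.19 and 11.9 TPM.

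In LM, 18 members passed the filter and none was called between states. By limma, an unadjusted p below 0.05 was reached by 1 member for GD15 against GD12, 3 for GD15 against CD15 and 2 for GD12 against CD15. Over all genes 0%, 0.178% and 1.04% were called, a stricter limit, so these shares are no background for the member counts. The 2 members of the last contrast were RFX3 and SPEF2. RFX3 had 0.726, 0.579 and 0.484 TPM in GD12 LM, against 2.62, 4.30 and 2.66 TPM in CD15 LM, a change of -1.37 ± 0.31 (adjusted p = 0.0747). SPEF2 had 1.06, 1.30 and 1.23 TPM in GD12 LM, against 4.88, 4.06 and 5.37 TPM in CD15 LM, a change of -1.39 ± 0.33 (0.0820). The groups did not overlap for either. Without the CD15 gilt 3 library both passed the test, at -1.46 (adjusted p = 0.0211) for RFX3 and -1.31 (0.0324) for SPEF2. The epithelium sum was also lower in GD12 LM, at 43.0 to 63.2 TPM, than in CD15 LM, at 124 to 305 TPM, and its part in these values was not tested.

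Most genes of the motile cilium outside the members were also called higher in CM. Of a further list of 115 such genes, chosen by known function with earlier results of these data in view, 86 were found and 84 tested. Of these, 68 were called higher in CM in GD15, 74 in GD12 and 69 in CD15, with none lower. Their median differences were 1.63, 2.13 and 1.76. Part of the 84 passed the level filter only through CM libraries, DNAI4 and VWA3A among them. These counts therefore describe the listed genes and carry no support beyond that. Of 35 genes of the primary cilium and of intraflagellar transport, which build cilia of every kind, 5 were called higher in GD15, 11 in GD12 and 4 in CD15, with none lower and medians of 0.46, 0.70 and 0.55. These were 14.3%, 31.4% and 11.4% of the list, where 10.9%, 13.4% and 11.8% of all genes were called higher and the medians of all genes were 0.19, 0.23 and 0.33. The epithelium genes gave 10 of 11 tested in GD15, 11 in GD12 and 10 in CD15, with medians of 3.45, 4.36 and 3.23. Of the 10 smooth muscle genes none was higher, and 5 were called lower in CM in GD15, 1 in GD12 and 0 in CD15. The last count is by limma, with 1 at an unadjusted p below 0.05.

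The genes most like the members were found from Pearson's r with their mean log2(TPM + 1), over the 12173 named genes outside the list that passed the filter. Over the 18 libraries, which fall into the 2 layers and so share that split, the 10 closest were DNAI4, VWA3A, DAW1, ODAD2, ENO4, DRC7, GRHL2, DYDC2, CFAP161 and DNAAF11, with r between 0.994 and 0.987. DNAI4 is an axonemal dynein chain, DAW1 and DNAAF11 help to assemble arms, ODAD2 belongs to the docking complex of the outer arm and DRC7 to the nexin link. GRHL2 is a transcription factor of epithelia in general, at 8.62 to 38.6 TPM in CM and 0.113 to 6.22 TPM in LM.

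Within the 9 CM libraries the order was different, and the closest 10 were CDK7, ODAD2, B4GALT3, PLS1, CFAP73, GTPBP8, B3GNT5, SLC33A1, HDDC3 and LCA5, with r between 0.988 and 0.953 among 11957 genes. Of these, ODAD2 and CFAP73 are axoneme genes. CDK7, a kinase of the general transcription machinery, had 13.3 to 25.2 TPM in CM and 8.44 to 18.5 TPM in LM. Only ODAD2 was in both sets of 10.

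The members were scattered over the genome. In the RefSeq annotation of Sscrofa11.1 chromosome 12 carried 6 of them (FOXJ1, DNAI2, CCDC40, TEKT1, CFAP52 and DNAH9), and ARMC3 and SPAG6 lay 446385 bases apart on chromosome 10 with 3 other annotated genes starting between them. ARMC3 and SPAG6 both had the CM pattern.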

How the data were processed

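The 18 libraries came from 9 gilts, 1 from each muscle layer, with 3 gilts per group as replicates. The authors aligned reads (HISAT2 2.1.0) to Sus scrofa 11.1, assigned them to genes (HTSeq 0.9.1), and deposited TPM values. The strand setting is not given in the sources used here. TPM keep no depth, so no counting interval could be given.

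Values were analysed as log2(TPM + 1), a scale computed here from the deposited TPM, the log2 transform not being the authors' own. In each fit, genes that reached 1 TPM in 3 or more of its libraries were tested with limma 3.58.1 (R 4.3.3, trended variance, Benjamini-Hochberg adjustment over all genes tested), and called at adjusted p below 0.05 and a difference beyond 1. The layer fit had the gilt as a block, as in the study's paired design: deviations of CM and LM of a gilt correlated at 0.19 to 0.53 in 9 of 9 gilts, and at -0.44 to 0.06 between gilts. The deviations were from means of 3 libraries, so same-gilt values above 0 draw the between-gilt values down. The between-gilt range is therefore no separate support for the pairs. States were compared unpaired within a layer. The members and lists were chosen with earlier results of these data known. All 36 members could be named. Other genes named are the 10 closest by r, overlap partners, and list genes. Alternatives covered the pseudocount, filter, scaling, block, variance trend, fold limit, an epithelium covariate and left-out libraries. Marker lists of gland epithelium, mesothelium, endothelium, immune cells and nerve are given in the closing section. Promoter motifs were not analysed here.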

Additional observations from a re-analysis of the deposited data

How the results depend on the processing

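The numbers of members called higher in CM (21 in GD15, 25 in GD12 and 25 in CD15) stayed within 1.5 times under most alternatives. With a pseudocount of 5 TPM, 16 were called in GD12 and 13 in CD15. With a filter at a mean of 5 TPM, which left 18 members to test, 14 were called in GD12 and 15 in CD15. With the epithelium list as a covariate, 0 were called in GD15, GD12 and CD15, as were 0 of all genes, and the RSPH9 difference in GD15 turned to -0.0682 (adjusted p = 0.9999). Leaving out 1 gilt at a time gave 19 to 21 members in GD15, 24 to 25 in GD12 and 23 to 25 in CD15. The calls lost were RFX3 in GD12 without gilt 1 or 3, DNAH9 in GD15 without gilt 1 or 2, RSPH9 in GD15 without gilt 1 or 3, and ROPN1L and DRC1 in CD15. Without the gilt block 20, 25 and 23 members were called, and DRC1 in GD15 and CD15 and ROPN1L in CD15 were lost. Between states, leaving out 1 gilt gave 0 to 1 members for GD15 against GD12 in CM and 0 to 2 for GD12 against CD15 in LM. The LM count was 2 with the LM library of CD15 gilt 3 left out. The replicate numbers did not pair gilts of different states. Levels under 1 TPM limit what can be said of MCIDAS, CCNO and CAPS.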

Other observations

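The LM library of GD15 gilt 1 had the lowest FOXJ1 (0.909 TPM) and the lowest epithelium sum (15.6 TPM) of all 18 libraries, yet some members were not lowest there. DNAI1 had 1.56 TPM in it, close to the 1.62 TPM of the GD15 LM gilt 2 library, against 0.113 to 0.897 TPM in GD12 LM. DNAAF1 had 2.58 TPM, second among LM libraries, and CCDC39 had its highest LM level, 21.8 TPM. DYNC2H1 was at 323% of the CM level of the same gilt. The summed level of the 21 members other than FOXJ1, per unit of the epithelium sum, was 0.774 in this library, against 0.0690 in the CM library of the same gilt. In the LM library of GD15 gilt 2 the ratio was 0.0817, against 0.140 in its CM library.

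Counts of the other marker lists in CM against LM stand beside 10.9%, 13.4% and 11.8% of all genes called higher in GD15, GD12 and CD15. Of 9 gland epithelium genes, 7 were called higher in CM in GD15, 8 in GD12 and 6 in CD15, with summed levels of 5915 to 17120 TPM in CM and 74.3 to 3238 TPM in LM. The gland factor FOXA2 had 80.8, 59.0 and 35.2 TPM in GD15 CM, against 0.169, 10.3 and 0.690 TPM in GD15 LM. Of 6 immune genes, 4 were called higher in CM in GD15, 2 in GD12 and 0 in CD15. Of 3 tested mesothelium genes, 0 were called higher in CM in GD15, 1 in GD12 and 1 in CD15 (BNC1 in both), with none called lower and medians of -0.59, -0.80 and -0.28 on the log2 scale. The summed level of the 4 mesothelium genes found was 99.3 to 166 TPM in CM against 219 to 250 TPM in LM in GD15, 120 to 191 TPM in CM against 248 to 279 TPM in LM in GD12, and 135 to 278 TPM in CM against 110 to 425 TPM in LM in CD15, so it was higher in LM without overlap in GD15 and GD12. Of 5 nerve and glia genes, 1, 1 and 0 were called higher, and of 4 endothelium genes 0 in each. By limma, the counts of 0 stand beside 1 immune gene in CD15, 2 mesothelium genes in GD15, 0 nerve genes in CD15, and 0, 0 and 1 endothelium genes in GD15, GD12 and CD15 at an unadjusted p below 0.05.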
